A study of Mus musculus with 34 samples.

Results

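The 10 genes described here encode enzymes of glycolysis, the pathway that breaks glucose down to pyruvate, together with the enzyme that turns pyruvate into lactate. They were Hk1, Hk2, Pfkl, Pfkm, Pfkp, Aldoa, Tpi1, Pgk1, Pgam1 and Ldha. They were chosen by name, and each matched a single one of the 25965 entries of the deposited count table. Their mRNA was measured in mouse cumulus cells (CCs), the somatic cells that surround the oocyte in the cumulus-oocyte complex. The study asked how obesity and excess leptin, the hormone secreted by fat tissue, change the ovary. The table held 34 RNA-seq libraries in 7 groups, all from superovulated female C57BL/6J mice that were 8 weeks old at the start of treatment. In the leptin protocol, mice were injected intraperitoneally with saline (16 C, n = 3) or with 100 µg of leptin per day, split over 2 injections (16 L, n = 5), for 16 days. In the diet protocol, mice were fed a chow diet (CD, 11% of energy from fat) or a high-fat diet (HFD, 58%) for 4 weeks (4-week CD, n = 5, and 4-week HFD, n = 5) or 16 weeks (16-week CD, n = 6, and 16-week HFD, n = 7). A further group on 16 weeks of HFD was labelled as low weight gainers (n = 3), so its members were set apart by the weight they gained and not by treatment. Each library was made from about 50 CCs of 1 complex, according to the labels, so the p-values measure the spread between these libraries.

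As background, the mouse oocyte takes up little glucose itself and depends on pyruvate that CCs make from glucose. Hexokinases trap glucose in the cell as glucose 6-phosphate, and phosphofructokinases add a further phosphate in the step that commits the sugar to glycolysis. Aldolase and triose phosphate isomerase then give triose sugars, the later enzymes harvest ATP, and lactate dehydrogenase A interconverts pyruvate and lactate while it renews NAD+.

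In the GRCm38 coordinates of the table, the genes at the entry to the pathway were Hk1 (ENSMUSG00000037012) at chr10:62268855-62379908 on the minus strand, Hk2 (ENSMUSG00000000628) at chr6:82725025-82774454 on the minus strand, Pfkl (ENSMUSG00000020277) at chr10:77986947-78010083 on the minus strand, Pfkm (ENSMUSG00000033065) at chr15:98092589-98132447 on the plus strand and Pfkp (ENSMUSG00000021196) at chr13:6579768-6648777 on the minus strand. The genes of the later steps were Aldoa (ENSMUSG00000030695) at chr7:126795234-126800751 on the minus strand, Tpi1 (ENSMUSG00000023456) at chr6:124810586-124814296 on the minus strand, Pgk1 (ENSMUSG00000062070) at chrX:106187100-106203699 on the plus strand, Pgam1 (ENSMUSG00000011752) at chr19:41911871-41918664 on the plus strand and Ldha (ENSMUSG00000063229) at chr7:46841475-46855627 on the plus strand. Counts were given per gene, so splice forms were not told apart, and the parts of each gene that were counted are not stated.

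The 250 bases upstream of a start annotated in RefSeq are shown for Hk1, Hk2, Pfkl and Pfkp, the hexokinases and phosphofructokinases that passed the test in at least 1 comparison. The RefSeq start of Pfkl lies 276 bases inside the gene coordinates given above, so its window falls within them. For Pfkp the distance is 6 bases. Sequences are from RefSeq on GRCm38.p6, 5′ to 3′ on the strand of the gene, and all 4 genes lie on the minus strand. Capitals mark ACGTG and GCGTG, core letters bound by hypoxia-inducible factors, and GGGCGG, the GC box, on either strand, so that a match on the other strand is shown as its reverse complement. A match is a description of letters only, and the start used in CCs cannot be read from a count per gene.
Hk2 (chr6:82774455-82774704): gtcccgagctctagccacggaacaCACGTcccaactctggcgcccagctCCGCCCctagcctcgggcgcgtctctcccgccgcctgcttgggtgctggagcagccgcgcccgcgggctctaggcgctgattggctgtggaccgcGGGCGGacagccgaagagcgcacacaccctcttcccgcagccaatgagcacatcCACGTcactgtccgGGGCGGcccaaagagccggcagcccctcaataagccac
Hk1, outermost start (chr10:62379909-62380158): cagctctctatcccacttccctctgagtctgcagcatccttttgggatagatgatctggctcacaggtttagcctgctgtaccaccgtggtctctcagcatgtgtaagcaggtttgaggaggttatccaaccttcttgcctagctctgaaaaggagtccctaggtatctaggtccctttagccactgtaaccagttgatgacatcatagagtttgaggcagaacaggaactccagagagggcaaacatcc
Hk1, inner start (chr10:62340422-62340671): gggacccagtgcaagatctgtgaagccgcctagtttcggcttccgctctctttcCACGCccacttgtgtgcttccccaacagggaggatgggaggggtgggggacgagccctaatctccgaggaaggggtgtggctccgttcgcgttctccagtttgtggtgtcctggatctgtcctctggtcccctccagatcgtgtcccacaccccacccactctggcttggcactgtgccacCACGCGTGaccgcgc
Pfkl (chr10:78009808-78010057): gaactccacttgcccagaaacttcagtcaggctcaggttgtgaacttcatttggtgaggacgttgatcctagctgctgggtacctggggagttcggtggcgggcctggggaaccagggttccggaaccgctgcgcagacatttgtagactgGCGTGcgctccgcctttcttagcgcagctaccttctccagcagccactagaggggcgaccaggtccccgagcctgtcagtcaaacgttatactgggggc
Pfkp (chr13:6648772-6649021): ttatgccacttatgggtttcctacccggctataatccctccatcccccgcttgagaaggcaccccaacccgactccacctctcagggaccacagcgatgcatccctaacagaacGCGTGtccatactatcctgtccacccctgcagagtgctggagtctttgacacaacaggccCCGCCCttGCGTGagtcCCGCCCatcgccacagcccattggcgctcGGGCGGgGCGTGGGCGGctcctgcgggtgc
The Hk2 window held 2 ACGTG and 3 GGGCGG, whereas the window at the outermost Hk1 start held none of these letters and that at the inner start held 3 GCGTG. The Pfkl window held 1 GCGTG, and the Pfkp window held 3 GCGTG and 4 GGGCGG, some of them overlapping. Over the window nearest to the table's start of each of the 10 genes, ACGTG occurred in 5, GCGTG in 3 and GGGCGG in 5. The E-box CACGTG, which overlaps ACGTG, occurred in 2, Pfkm and Ldha. Of all 32536 RefSeq windows of this length, 16.7% held ACGTG, 28.3% GCGTG, 33% GGGCGG and 6.04% CACGTG.

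The libraries held 1104611 to 13207018 counts each. Levels are given as counts per 1e6 (CPM) after TMM scaling over the 34 libraries, on which 3 counts correspond to 0.22 to 2.73 CPM. Granulosa and cumulus markers summed to 4999 to 26466 RPM (the same scaled by library totals alone), with a median of 5826 RPM in 16 L against 12634 RPM in 16 C. Oocyte markers summed to 15.8 to 48.6 RPM in 16 L and to 1.12 to 1.33 RPM in 16 C, and the part of either in the leptin results was not tested. Some libraries stood apart. In 16 L replicate 18 the 10 oviduct epithelium markers summed to 31753 RPM, red blood cell markers to 9826 RPM, and of the cumulus expansion genes Ptx3 and Has2 were at 0 and Ptgs2 at 2 counts. Theca markers summed to 1517 RPM in that library and to at most 66.1 RPM elsewhere. Red blood cell markers also summed to 2551 RPM in 16 L replicate 21, against at most 134 RPM in the other libraries. Oviduct markers were also raised in 16 L replicates 20, 21 and 23 (897 to 2502 RPM, against 130.0 to 493 RPM in the other libraries). Macrophage and neutrophil markers summed to 1239 and 1465 RPM in 16 L replicates 20 and 23 and to at most 576 RPM elsewhere. Oocyte markers summed to 429 RPM in 4-week HFD replicate 5 and to at most 48.6 RPM elsewhere. Replicates 1 and 2 of 16-week CD differed from the rest of their group and were close to each other, though not within sampling noise, and were kept as 2 samples. Replicates 4 and 5 of 4-week HFD were likewise close to each other and kept as 2. In bulk RNA, fewer cells of a type and less RNA per cell cannot be told apart.

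Together the 10 mRNAs made up 0.195% to 0.88% of the counts of a library. Per kilobase of the longest coding transcript, the mean level over all libraries was highest for Aldoa (828 CPM per kb) and Ldha (744), followed by Tpi1 (475) and Pgk1 (155). Pgam1 (50.9), Pfkl (49.5), Pfkp (47.6) and Hk2 (43.4) formed a lower tier, and Pfkm (4.67) and Hk1 (4.59) were the least abundant. This order rests on the length used, which for Pfkp was 4.145 kb, against 13.401 kb over all annotated exons. It also pools all groups and did not hold in each. In 4-week HFD Ldha (967) was above Aldoa (862), and the group means of Hk2 ran from 10.7 in 16 L to 95.7 in 16 C. The spread between libraries differed widely between the genes: the highest library exceeded the lowest 3.48-fold for Aldoa, 30.7-fold for Hk2 and 54.5-fold for Pgam1. The plot of all 10 genes by group shows these levels library by library.

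**Figure D1:**
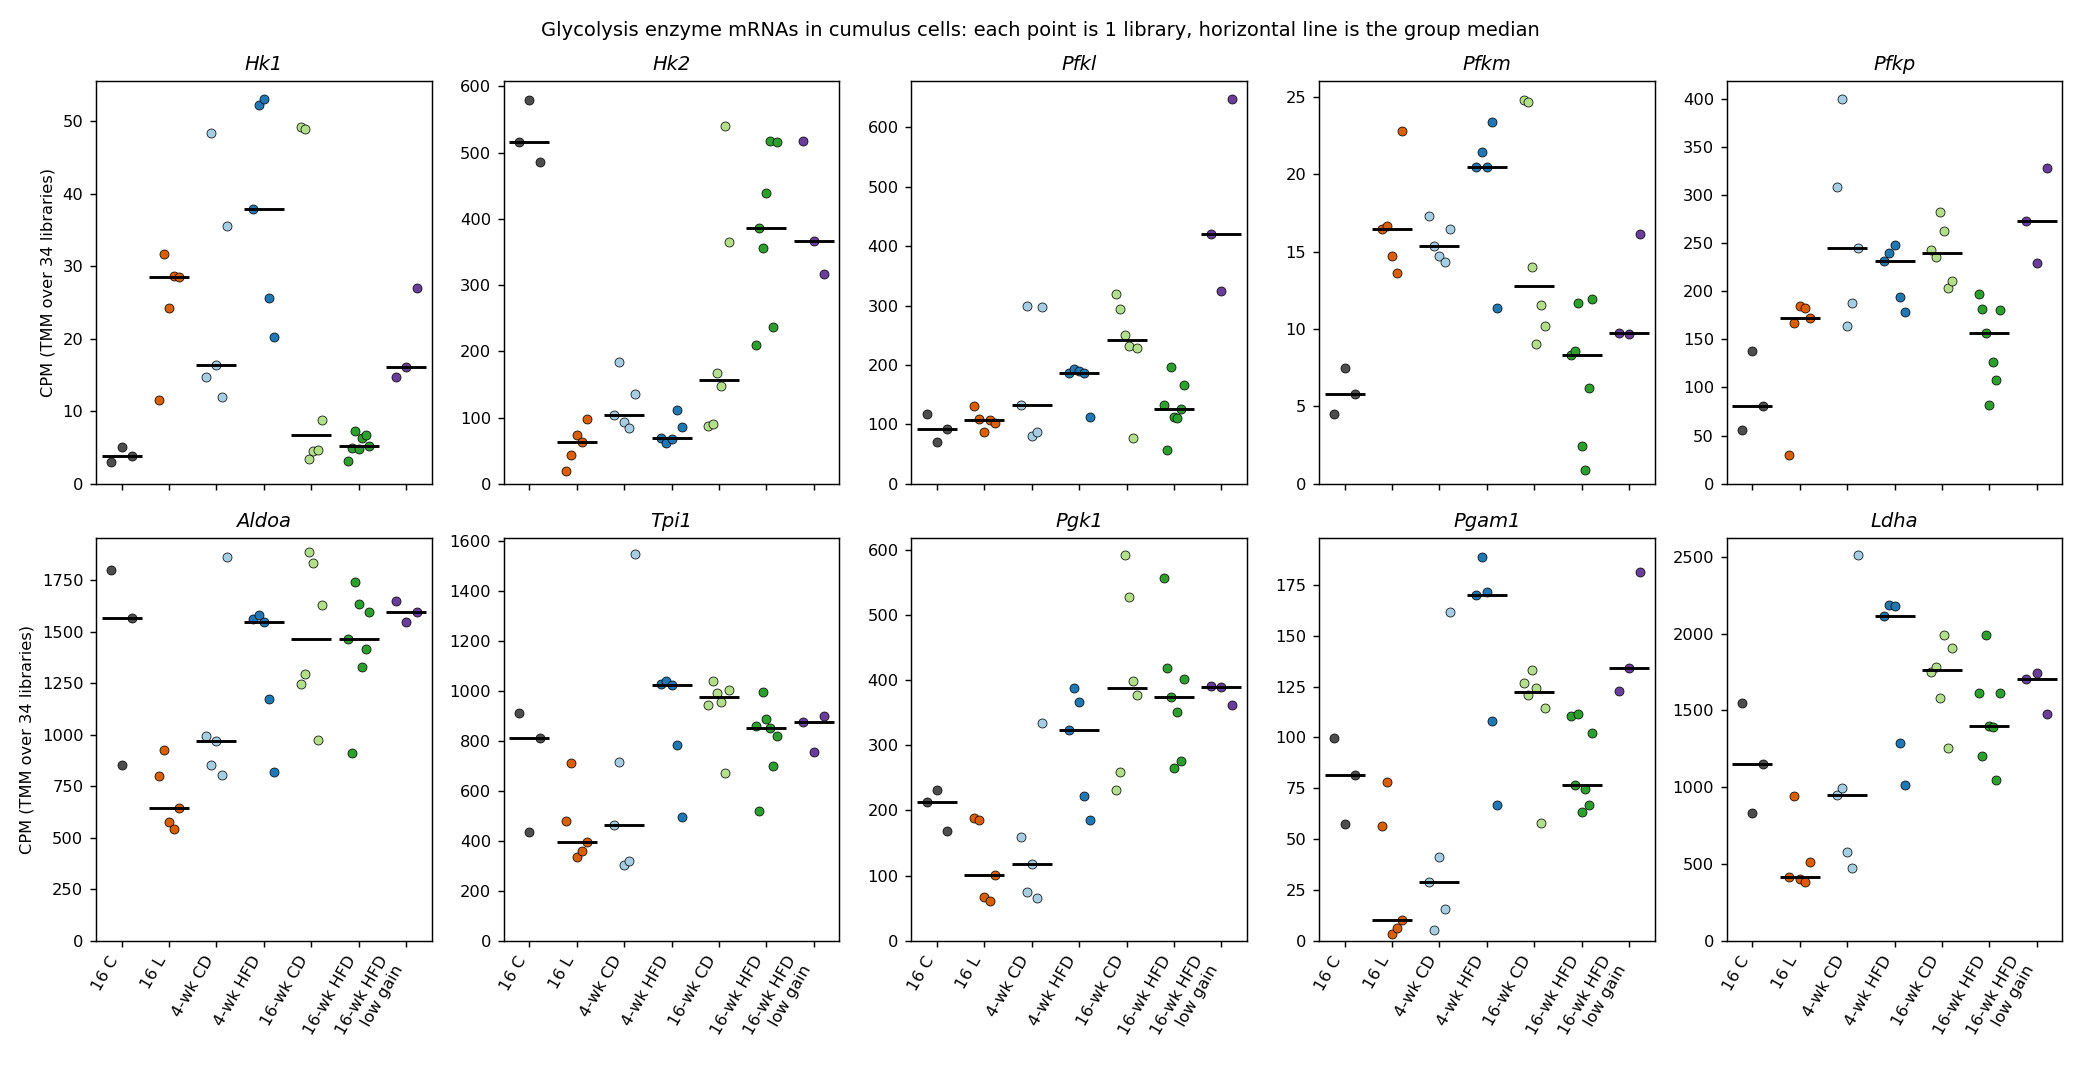
Level of each of the 10 mRNAs (y axis, CPM after TMM scaling) in the 7 groups (x axis); each point is 1 of the 34 libraries and the horizontal line is the group median. Hk2 lies at 486 to 579.9 CPM in 16 C and at 18.9 to 97.3 CPM in 16 L, whereas Pfkl is highest in the low weight gainers.

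In the leptin protocol the hexokinase mRNAs moved in opposite directions. Hk2, the inducible hexokinase of insulin-sensitive and proliferating tissues, was 8.97-fold lower in 16 L than in 16 C, while Hk1, the hexokinase expressed in most tissues, was 5.99-fold higher. These were the 2 of the 10 genes that passed the edgeR test (quasi-likelihood, Benjamini-Hochberg adjusted p under 0.05), 1 in each direction, where 8.56% of all 11723 genes tested did (4.06% higher and 4.5% lower).

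Hk2 was measured at 517, 579.9 and 486 CPM in replicates 1, 2 and 3 of 16 C. In 16 L it was at 18.9, 43.6, 73.1, 62.6 and 97.3 CPM in replicates 18, 19, 20, 21 and 23. Every 16 L library lay below every 16 C library, and the lowest was replicate 18, the library with the most oviduct and red blood cell RNA. Hk2 fell by 3.17 on the log2 scale (SE 0.476, edgeR adjusted p = 0.0121), and without replicate 18 it fell by 3.02 (edgeR adjusted p = 1.36e-04). Hk1 was at 3.02, 5.08 and 3.85 CPM in replicates 1, 2 and 3 of 16 C, which rested on 4 to 43 counts. In 16 L it was at 11.5, 31.6, 24.2, 28.6 and 28.5 CPM in replicates 18, 19, 20, 21 and 23. The groups did not overlap, and replicate 18 was the lowest 16 L library here as well. The log2 fold change was 2.58 (SE 0.466, edgeR adjusted p = 0.0187), and 2.64 without replicate 18 (edgeR adjusted p = 3.85e-04). In replicate 19, where oviduct markers summed to 161 RPM (16 C, 130.0 to 162 RPM) and granulosa and cumulus markers to 13286 RPM (16 C, 11686 to 26466 RPM), Hk2 also lay below and Hk1 above every 16 C library. In the other 4 libraries of 16 L granulosa and cumulus markers summed to 4999 to 6528 RPM, below every 16 C library, and after TMM scaling all 5 lay below (3823 to 11164 CPM against 15769 to 41331 CPM). The 12 cumulus expansion genes, which respond to the ovulatory signal, also separated the groups after TMM scaling (178 to 1377 CPM in 16 L, replicate 19 included, against 2127 to 3397 CPM in 16 C), though not by library totals alone (162 to 1820.5 against 1577 to 2175 RPM). The part of either in the hexokinase differences was not tested. Replicate 19 differed from 16 C in its mitochondrial transcripts (4.71% of counts, against 0.335% to 0.628%), whose part was not tested.

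Without 16 C replicate 1 or 3 neither hexokinase passed the test (edgeR adjusted p = 0.0574 and 0.0577 for Hk2, 0.105 and 0.114 for Hk1), while the log2 fold changes stayed between -3.23 and -3.18 for Hk2 and between 2.45 and 2.54 for Hk1. Without 16 C replicate 2 or 16 L replicate 20, 21 or 23, Hk2 alone passed (edgeR adjusted p of Hk1 = 0.0528 to 0.0638). Without 16 L replicate 18, 6 of the 10 genes passed (Aldoa, Hk1, Hk2, Ldha, Pfkm and Pgk1), where 4635 genes passed in all. Without 16 L replicate 19, 4 of the 10 passed (Hk1, Hk2, Ldha and Pfkm), and no share over all genes is given here for that fit. With every library kept 1004 genes passed in all. With 1 library left out the total ran from 30 (16 C replicate 1) to 4635 (16 L replicate 18).

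Pfkm, the muscle type of phosphofructokinase, came next. It was at 4.52, 7.45 and 5.78 CPM in replicates 1, 2 and 3 of 16 C and at 16.4, 16.6, 14.7, 13.6 and 22.8 CPM in replicates 18, 19, 20, 21 and 23 of 16 L. The groups did not overlap, but the log2 fold change of 1.48 (SE 0.41) missed the threshold (edgeR adjusted p = 0.0518). In all, 3 of the 10 genes had groups that did not overlap, where 23.2% of all genes tested did. The liver and platelet types, Pfkl and Pfkp, had log2 fold changes of 0.22 (SE 0.315) and 0.67 (SE 0.567). Scaled by library totals alone, the log2 ratio of mean RPM was 2.34 for Pfkm, 0.98 for Pfkl and 1.61 for Pfkp, and the groups of Pfkl did not overlap on that scale, with 16 L higher. Pfkp was at 29.9 CPM in 16 L replicate 18 and at 167 to 185 CPM in the other 4 libraries of that group.

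The 5 enzymes below phosphofructokinase all had negative log2 fold changes, from -0.64 for Tpi1 to -1.32 for Pgam1, and none passed the test (edgeR adjusted p = 0.11 for Ldha, the smallest, to 0.315 for Pgam1). The direction of Tpi1 turned with the scaling: the log2 ratio of mean RPM, scaled by library totals alone, was 0.11 for Tpi1, -0.01 for Pgk1, -0.25 for Aldoa, -0.36 for Ldha and -0.70 for Pgam1. Ldha was at 1546, 835 and 1152 CPM in replicates 1, 2 and 3 of 16 C and at 419, 941, 399.6, 381 and 516 CPM in replicates 18, 19, 20, 21 and 23 of 16 L. Replicate 19 of 16 L lay within the range of 16 C, and the other 4 libraries lay below it. Pgam1, which moves the phosphate within phosphoglycerate, split the 16 L libraries: 56.7 and 77.9 CPM in replicates 18 and 19 against 3.46, 6.13 and 10.4 CPM in replicates 20, 21 and 23. Gapdh, the enzyme between Tpi1 and Pgk1, was at 0.681 to 5.37 CPM in replicates 18, 20, 21 and 23 of 16 L, at 65.8 CPM in replicate 19 and at 3.02 to 6.93 CPM in 16 C, so that replicate 19 stood apart from the other libraries of both groups.

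Over the 10 genes the median log2 fold change between 16 L and 16 C was -0.69, beside 0.27 over all genes tested, and 6 of the 10 were negative under TMM scaling. The 50 most abundant genes took 30.7% to 34.6% of the counts in 16 C and 13.4% to 19.8% in 16 L. The part of this difference in the fold changes was not tested, but scaling by library totals alone moved the median of all genes to 1.07. Under that scaling Hk2 fell by 2.27 on the log2 scale and the value for Hk1 was 3.47, and both still passed the test, with Pfkl and Pfkm. More of all genes tested passed under that scaling too, as counted in the last section.

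Of 60 further genes of glucose and pyruvate handling that could be tested, 5 rose and 5 fell in 16 L, where 8.56% of all genes were called. None of the 8 other glycolysis enzymes and none of the 7 carriers of glucose and lactate was among them. Around the entry of pyruvate to mitochondria, Pdk2, a kinase that switches pyruvate dehydrogenase off, rose (log2 fold change 2.47, SE 0.458, edgeR adjusted p = 0.0201), and the phosphatases that switch it on, Pdp1 and Pdp2, fell (log2 fold change -1.32 and -3.54). Pdp2 was at 159.9 to 188 CPM in 16 C and at 5.62 to 32.2 CPM in 16 L. Pdhx, a structural part of the same complex, fell, as did Myc and Arnt, transcription factors with glycolytic genes among their known targets. Egln2, an oxygen-sensing prolyl hydroxylase, rose, as did Tkt and Pgls of the pentose phosphate branch and Pck2, the mitochondrial form of phosphoenolpyruvate carboxykinase. The count of 10 moved both with the libraries and with the method: it was 29 without 16 L replicate 18, and 0 or 1 without any one 16 C library or 16 L replicate 20, 21 or 23, and it was 43 by limma-voom, 27 with library totals alone, 24 in 1 fit of all 34 libraries, 19 by DESeq2 and 4 with no filter on low counts.

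After 4 weeks of HFD none of the 10 genes passed the edgeR test (quasi-likelihood, Benjamini-Hochberg adjusted p under 0.05), where 4.26% of 11727 genes did. At an unadjusted p under 0.05 there were 3 of them (all genes, 24.3%), and DESeq2 called 0. Limma-voom with sample quality weights called 8, where it called 4048 genes in all, against 499 by edgeR. None of the 10 had groups that did not overlap, where 6.59% of all genes did. Granulosa and cumulus markers separated the groups, with sums of 6083 to 8532 RPM in 4-week CD and 9457 to 10069 RPM in 4-week HFD (4314 to 7791 and 8031 to 9319.7 CPM after TMM scaling), and their part in the 4-week differences was not tested. The 3 genes at an unadjusted p under 0.05 were Hk2, which was lower, and Pgk1 and Pgam1, which were higher. The median log2 fold change of the 10 was 0.32, beside -0.01 over all genes tested, and 7 of the 10 were positive.

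Hk2 was at 104, 183, 93.2, 84.0 and 136 CPM in replicates 1, 2, 7, 8 and 11 of 4-week CD and at 69.4, 62.1, 67.9, 112 and 85.7 CPM in replicates 3, 4, 5, 13 and 14 of 4-week HFD. The ranges overlapped (log2 fold change -0.62, SE 0.265, edgeR adjusted p = 0.163). Pgk1, the first ATP-forming enzyme of the pathway, was at 159.6, 74.3, 118, 66.2 and 334 CPM in replicates 1, 2, 7, 8 and 11 of 4-week CD and at 323, 387, 366, 222 and 186 CPM in replicates 3, 4, 5, 13 and 14 of 4-week HFD. Its log2 fold change was 0.97 (SE 0.379, edgeR adjusted p = 0.136). Only CD replicate 11 lay inside the HFD range. Pgam1 was at 29.2, 5.31, 41.2, 15.9 and 161 CPM in replicates 1, 2, 7, 8 and 11 of 4-week CD and at 170.0, 189, 172, 108 and 66.8 CPM in replicates 3, 4, 5, 13 and 14 of 4-week HFD. Replicate 11 was again the one CD library in the HFD range (log2 fold change 1.46, SE 0.589, edgeR adjusted p = 0.146). The same library was the highest of all 34 for Tpi1 (1549 CPM) and Ldha (2514 CPM). Without it, Pgk1, Pgam1 and Ldha passed the test, where 1700 genes passed in all, against 499 with it. Pgk1 then had a log2 fold change of 1.46 (edgeR adjusted p = 0.009) and Pgam1 one of 2.54 (edgeR adjusted p = 0.00355).

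Without 4-week HFD replicate 5, the library with oocyte markers, 0 of the 10 passed as well, with log2 fold changes of 0.89 for Pgk1, 1.38 for Pgam1 and -0.57 for Hk2 (edgeR adjusted p = 0.224 to 0.287).

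The other 7 genes had log2 fold changes between -0.29 (Pfkp) and 0.66 (Ldha), each with overlapping groups. Of 61 further pathway genes tested, 3 passed, where 4.26% of all genes did. Egln1 was lower (log2 fold change -1.55, SE 0.209, edgeR adjusted p = 0.00785), and Txnip, a glucose-induced inhibitor of glucose uptake, and Me2, a mitochondrial malic enzyme, were higher (log2 fold change 1.58 and 0.85). Egln1 was at 34.1 to 51.3 CPM in 4-week CD and at 14.1 to 16.2 CPM in 4-week HFD. Without CD replicate 11 the count was 11, and without any one of 7 other libraries it was 1. It was 27 by limma-voom, 7 by DESeq2, and 1 with no filter on low counts, in 1 fit of all 34 libraries or with close pairs of libraries summed.

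**Figure D2:**
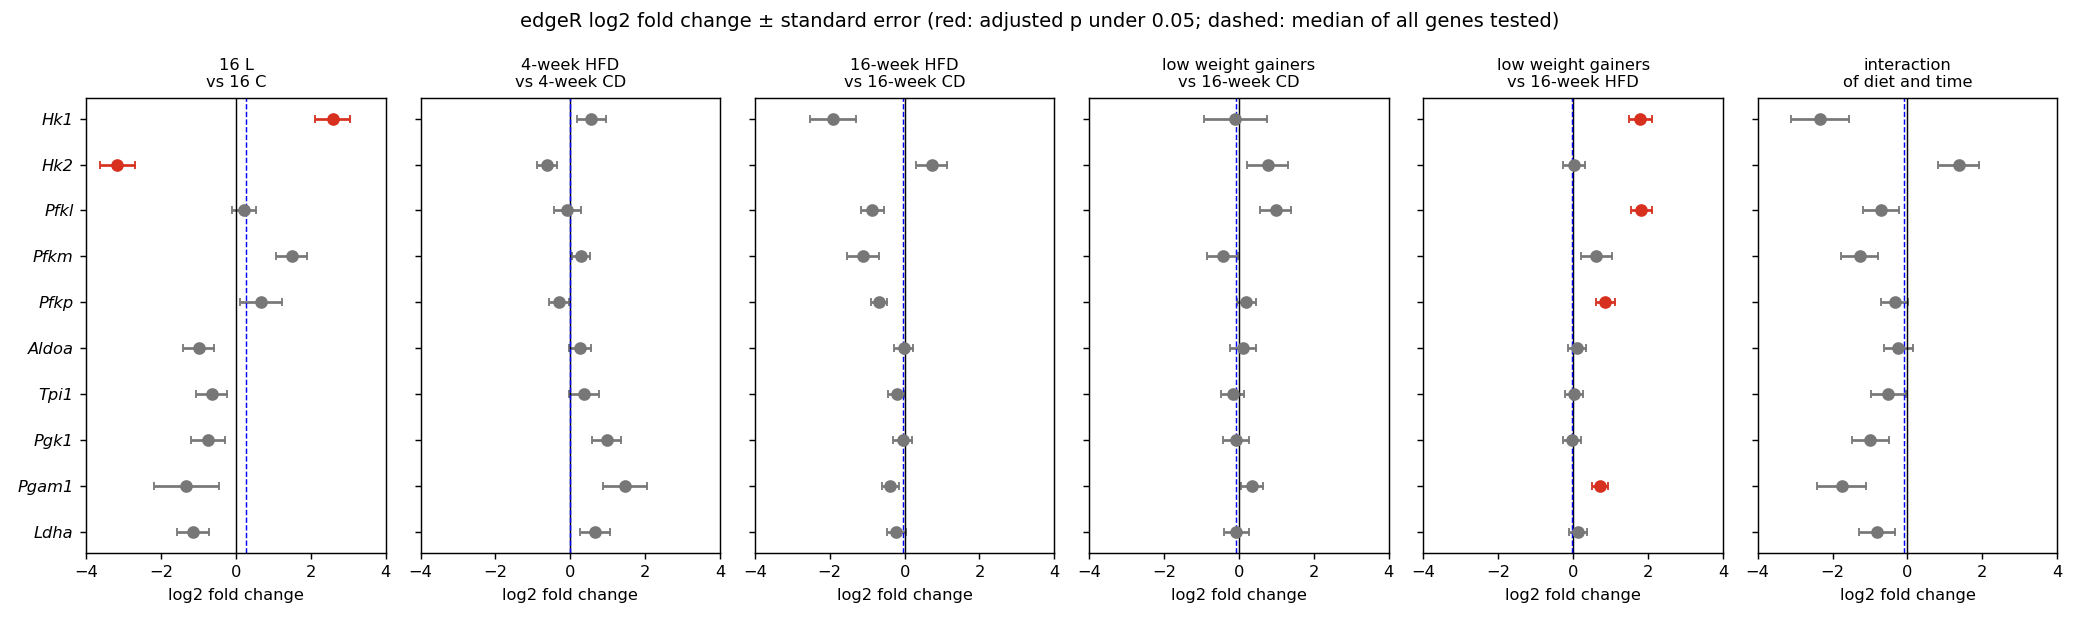
Log2 fold change of each gene (x axis; point and bar are the edgeR estimate ± SE) in the 6 comparisons, red where the adjusted p is under 0.05 and with the median of all genes tested as a dashed line. Hk1 and Hk2 are red in 16 L against 16 C, and Hk1, Pfkl, Pfkp and Pgam1 are red in the low weight gainers against 16-week HFD.

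After 16 weeks of HFD 9 of the 10 genes were lower than in 16-week CD and Hk2 was higher, but none passed the edgeR test (quasi-likelihood, Benjamini-Hochberg adjusted p under 0.05), where 0.0276% of 10861 genes did. The counts were 4 at an unadjusted p under 0.05 (all genes, 25.3%) and 2 by DESeq2, which called Hk1 and Pfkp, and 0 by limma-voom. DESeq2 also called more of all genes than edgeR, as counted in the last section. The median log2 fold change of the 10 was -0.30, beside -0.05 over all genes tested, and 8 of the 10 lay below that median. Scaled by library totals alone, the median of all genes was -0.39 and 4 of the 10 passed, where 1622 genes passed in all, against 3 under TMM scaling. Pfkp, the platelet type of phosphofructokinase, ranked first. It was at 204 to 282 CPM (median 239) in 16-week CD and at 82.2 to 198 CPM (median 157) in 16-week HFD. These ranges did not touch, and no other of the 10 genes was so separated, where 1.0% of all genes were. By library totals alone they overlapped, with a lowest CD library at 155 RPM and a highest HFD library at 174 RPM. The log2 fold change was -0.69 (SE 0.218, edgeR adjusted p = 0.0796).

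Hk1 was at 3.36 to 49.2 CPM (median 6.71) in 16-week CD and at 3.12 to 7.31 CPM (median 5.18) in 16-week HFD. The CD group was split, with 49.2 and 49.0 CPM in replicates 1 and 2 and 3.36 to 8.75 CPM in the other 4. The log2 fold change of -1.92 (SE 0.613, edgeR adjusted p = 0.0819) rested on those 2 libraries and was 0.11 without them (edgeR adjusted p = 0.928). Pfkl was at 77.3 to 319 CPM (median 242) in 16-week CD and at 56.8 to 196 CPM (median 125) in 16-week HFD. Of the CD libraries only replicate 9 (77.3 CPM) lay within the HFD range. Its log2 fold change of -0.86 (SE 0.304, edgeR adjusted p = 0.102) became -0.56 without CD replicates 1 and 2, and that of Pfkp became -0.64 (edgeR adjusted p = 0.561 and 0.424). Without CD replicate 9, on the other hand, 4 of the 10 genes passed (Hk1, Hk2, Pfkl and Pfkp), and 2217 genes in all. Replicate 9 also had the highest sum of granulosa and cumulus markers in the diet protocol (18871 RPM), whose part in this was not tested.

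Pfkm and Hk2 had log2 fold changes of -1.11 (SE 0.421) and 0.72 (SE 0.405), and Pgam1 one of -0.38 (SE 0.218). Aldoa, Tpi1, Pgk1 and Ldha had log2 fold changes between -0.22 and -0.02 and SEs of 0.226 to 0.256. Pfkm was the least counted of the 10, and in 16-week HFD replicate 14 a single count gave its 0.91 CPM. Of 57 further pathway genes tested, 0 passed in edgeR, with 17 at an unadjusted p under 0.05, 8 called by DESeq2 and 0 by limma-voom. With library totals alone edgeR called 15, in 1 fit of all 34 libraries 12 and with no filter on low counts 1. Without 16-week CD replicate 9 the edgeR count was 17, and without replicate 13 it was 2.

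The low weight gainers had more mRNA of 4 of the 10 enzymes than the other mice on 16 weeks of HFD. Pfkl was 3.54-fold higher, Hk1 3.46-fold, Pfkp 1.82-fold and Pgam1 1.64-fold. These 4 passed the edgeR test (quasi-likelihood, Benjamini-Hochberg adjusted p under 0.05) in that direction and none passed in the other, where 10.8% of 11258 genes passed as higher and 20.7% in either direction. The groups of all 4 did not overlap, where 20.5% of all genes did not.

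Pfkl was at 421, 325 and 648 CPM in replicates 21, 22 and 23 of the low weight gainers and at 56.8 to 196 CPM (median 125) in 16-week HFD (log2 fold change 1.82, SE 0.276, edgeR adjusted p = 0.00103). Replicate 23 held the highest Pfkl level of all 34 libraries. Hk1 was at 14.7, 16.0 and 27.1 CPM in replicates 21, 22 and 23 of the low weight gainers and at 3.12 to 7.31 CPM (median 5.18) in 16-week HFD (log2 fold change 1.79, SE 0.308, edgeR adjusted p = 0.00171). Every low weight gainer lay well above every 16-week HFD library for Hk1. These values rested on 53 to 104 counts in the low weight gainers and only 7 to 25 counts in 16-week HFD. Pfkp was at 273, 229 and 328 CPM in replicates 21, 22 and 23 of the low weight gainers and at 82.2 to 198 CPM (median 157) in 16-week HFD (log2 fold change 0.86, SE 0.243, edgeR adjusted p = 0.0201). Pgam1 was at 123, 134 and 182 CPM in replicates 21, 22 and 23 of the low weight gainers and at 63.3 to 112 CPM (median 76.7) in 16-week HFD (log2 fold change 0.71, SE 0.215, edgeR adjusted p = 0.0272). For both, the gap between the groups was narrow. Without low weight gainer replicate 23, Pfkl and Hk1 still passed (log2 fold change 1.50 and 1.46), whereas Pfkp and Pgam1 did not (edgeR adjusted p = 0.127 and 0.202). Pfkp also missed the threshold without replicate 21 (edgeR adjusted p = 0.0608), and Pgam1 without replicate 22 or 16-week HFD replicate 14 (edgeR adjusted p = 0.0526 and 0.0505). In 1 fit of all 34 libraries only Pfkl of the 4 passed (edgeR adjusted p = 0.00396 for Pfkl, 0.07 for Hk1, 0.135 for Pfkp and 0.539 for Pgam1). Granulosa and cumulus markers also separated these groups, with sums of 13826 to 15984 RPM in the low weight gainers and 6868 to 12232 RPM in 16-week HFD, though not after TMM scaling (14205 to 17819 and 7812 to 16772 CPM). Mitochondrial transcripts took 0.337% to 0.614% of the counts in the low weight gainers and 0.786% to 1.53% in 16-week HFD. The part of either in these differences was not tested. Oviduct, red blood cell and white blood cell markers overlapped between the groups.

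The other 6 genes did not pass. Pfkm had a log2 fold change of 0.62 (SE 0.426). For Hk2, Aldoa, Tpi1, Pgk1 and Ldha the values lay between -0.04 and 0.12 with SEs of 0.231 to 0.29. The median over the 10 was 0.37, beside -0.03 over all genes tested.

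Of 60 further pathway genes tested, 12 rose and 1 fell in the low weight gainers against 16-week HFD, where 20.7% of all genes were called. Among the other glycolysis enzymes 4 of 9 rose. Pkm, which makes pyruvate in the last step, had a log2 fold change of 1.35 (SE 0.278, edgeR adjusted p = 0.00402), Eno1 of 0.98, Gpi1 of 0.77 and Gapdh of 1.10. Pkm was at 698 to 1338 CPM in the low weight gainers and at 226 to 556 CPM in 16-week HFD. The glucose carriers Slc2a1 and Slc2a8 and the lactate carrier Slc16a3 rose (log2 fold change 1.25, 2.44 and 1.17), though Slc2a8 stood at no more than 6.61 CPM. The remaining ones that rose were Pdk2, Egln2, G6pc3, Tkt and Gfpt2. Gfpt1, the first enzyme of the hexosamine branch, fell by 0.80 while its paralogue Gfpt2 had a log2 fold change of 1.34. The count of 13 was 7 without low weight gainer replicate 21 and 2 without replicate 23, and 6 in 1 fit of all 34 libraries.

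Against 16-week CD the low weight gainers showed no called gene among the 10, where 0.00861% of 11620 genes were called by edgeR. There was 1 at an unadjusted p under 0.05 (all genes, 11.2%), and DESeq2 and limma-voom called 0. That gene was Pfkl, at 77.3 to 319 CPM (median 242) in 16-week CD and so below every low weight gainer, where 7.56% of all genes had groups that did not overlap (log2 fold change 0.98, SE 0.403, edgeR adjusted p = 0.409). By library totals alone the groups overlapped, with 16-week CD up to 436 RPM and the low weight gainers from 269 RPM. Mitochondrial transcripts took 0.337% to 0.614% of the counts in the low weight gainers and 0.902% to 2.31% in 16-week CD. Their part in this comparison was not tested. Hk2 followed with a log2 fold change of 0.77 (SE 0.55) and Pgam1 with 0.36 (SE 0.294). The other 7 lay between -0.44 and 0.19, and the median of the 10 was 0.01, beside -0.08 over all genes tested. Of 62 further pathway genes tested, 0 passed in edgeR, with 7 at an unadjusted p under 0.05, 2 called by DESeq2 and 0 by limma-voom. The 3 comparisons among the 16-week groups share libraries, so their values are not independent of each other.

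Whether the effect of HFD differed between 16 and 4 weeks was tested as an interaction over the 23 libraries of the CD and HFD groups. None of the 10 genes passed the edgeR test (quasi-likelihood, Benjamini-Hochberg adjusted p under 0.05), where 3.66% of 12235 genes did, with 4 at an unadjusted p under 0.05 (all genes, 23.4%), 2 by DESeq2 (Hk1 and Pgam1) and 8 by limma-voom. Over all genes limma-voom called 2355, against 448 by edgeR, and DESeq2 also called more than edgeR. The 3 with the smallest p were Hk1 (difference of log2 fold changes -2.33, SE 0.775, edgeR adjusted p = 0.0756), Pgam1 (-1.76, SE 0.646, edgeR adjusted p = 0.102) and Pfkm (-1.28, SE 0.501, edgeR adjusted p = 0.122). For these genes the diet difference was positive at 4 weeks and negative at 16 weeks. For Hk2 it was the reverse (1.37, SE 0.548). The value for Hk1 became -0.48 without 16-week CD replicates 1 and 2. Without 16-week CD replicate 9, Hk1, Hk2 and Pgam1 passed, without 4-week CD replicate 11, Ldha, Pgam1 and Pgk1, and without 16-week CD replicate 5, Hk1. Over all genes 1685 passed without 16-week CD replicate 9, against 448 with every library kept and 69 to 1685 with 1 library left out. No share over all genes is given here for the fits without 4-week CD replicate 11 or 16-week CD replicate 5. Over the 10 genes the median was -0.76, beside -0.09 over all genes tested, and 9 of 10 were negative. Of 63 further pathway genes tested, Egln1 passed with a positive value and Gapdh and Slc2a10 with negative ones, where 3.66% of all genes passed. That count of 3 was 13 without 16-week CD replicate 9, 10 without 4-week CD replicate 11, 6 without 16-week CD replicate 5 and 5 without 4-week HFD replicate 14. It was 15 by limma-voom, 11 by DESeq2, 10 with library totals alone, 5 with RLE scaling and 0 with close pairs of libraries summed.

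The balance of the hexokinases shifted widely between libraries. Per kilobase of transcript, Hk2 was above Hk1 in 32 of the 34 libraries, and Hk1 was above Hk2 in 2, replicates 4 and 5 of 4-week HFD, the pair of libraries close to each other. As a share of Hk1 plus Hk2 per kilobase, Hk1 made up 0.747% to 1.12% in 16 C and 27.4% to 48.3% in 16 L. It made up 15.5% to 25.4% in 4-week CD and 22.8% to 52.0% in 4-week HFD. In the 16-week groups the share was 1.28% to 3.52% in HFD, 3.53% to 9.92% in the low weight gainers and 1.10% to 42.0% in CD, where replicates 1 and 2 stood at 42.0% and 41.0% and the other 4 at most at 3.79%. Thus the share of Hk1 was at most 3.79% in 16 C, 16-week HFD and those 4 libraries of 16-week CD, and at least 15.5% in 16 L, both 4-week groups and 16-week CD replicates 1 and 2, where Hk2 was still above Hk1 in all libraries but the 2 named above. The sum of both per kilobase was 96.6 ± 8.86 CPM per kb in 16 C and 16.5 ± 6.68 in 16 L (mean ± SD), and by library totals alone 66.5 ± 4.54 RPM per kb and 21.0 ± 9.97. Measured per kilobase of all annotated exons instead, Hk1 was above Hk2 in 0 libraries, since that length is longer for Hk1.

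**Figure D3:**
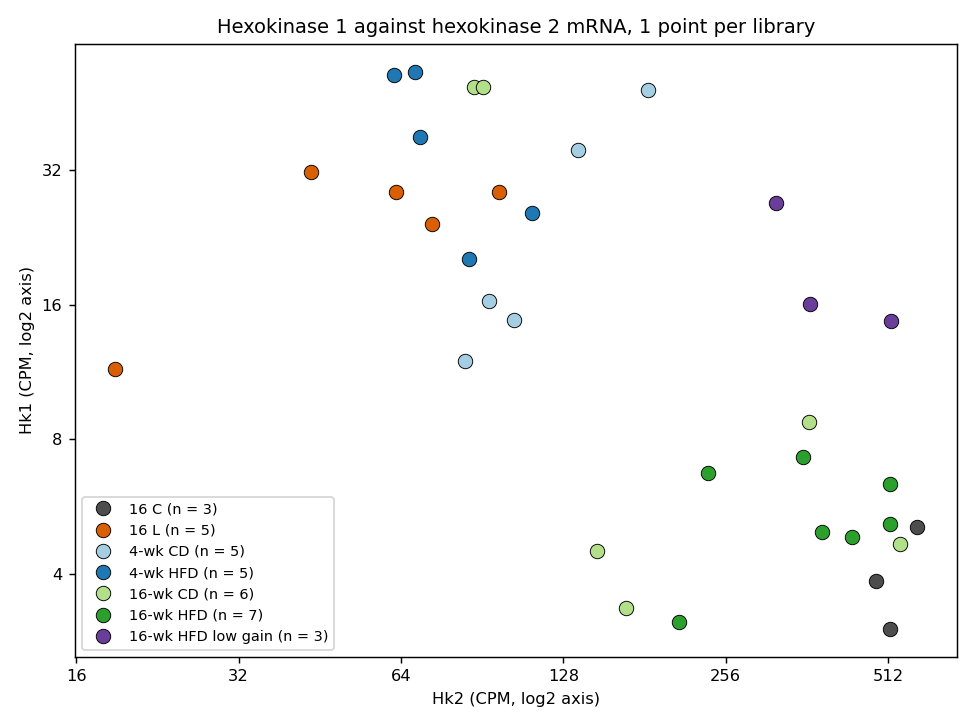
Level of Hk1 (y axis) against Hk2 (x axis), both in CPM on log2 axes, with 1 point for each of the 34 libraries coloured by group. The 16 C and 16-week HFD libraries lie at the lower right, the 16 L and 4-week HFD libraries at the upper left apart from 16 L replicate 18 (18.9 CPM of Hk2), and the low weight gainers at the right with 14.7 to 27.1 CPM of Hk1.

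Among the phosphofructokinases, which work as tetramers of these subunits, Pfkl and Pfkp shared nearly all of the mRNA per kilobase. Pfkl was the highest of the 3 in 15 libraries and Pfkp in 19, and Pfkm was the lowest in all 34 (0.522% to 11.9% of the sum). Per kilobase of all annotated exons Pfkl was the highest in 28 libraries and Pfkm the lowest in 33, so the order of Pfkl and Pfkp rests on the length used. The Pfkl share was 59.8% to 67.2% in the low weight gainers and 24.5% to 59.2% in 16-week HFD, ranges separated by a narrow gap. This share is built from Pfkl, which passed the test between these groups, so it adds no separate result. In 16 L the Pfkl share was 73.0% in replicate 18 and at most 38.7% in the others. The sum of the 3 was 49.1 ± 4.92 CPM per kb in 16 C, 70.1 ± 12.6 in 16 L, 117 ± 48.4 in 4-week CD and 106 ± 16.9 in 4-week HFD (mean ± SD). It was 126 ± 28.6 in 16-week CD, 72.5 ± 17.8 in 16-week HFD and 196 ± 57.5 in the low weight gainers. By library totals alone the distance between the leptin groups was wider, at 33.8 ± 1.72 RPM per kb in 16 C and 86.8 ± 24.9 in 16 L. On that scale the low weight gainers ranged from 120 to 252 RPM per kb. Both 4-week CD (87.5 to 226) and 16-week CD (56.4 to 209) overlapped them.

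**Figure D4:**
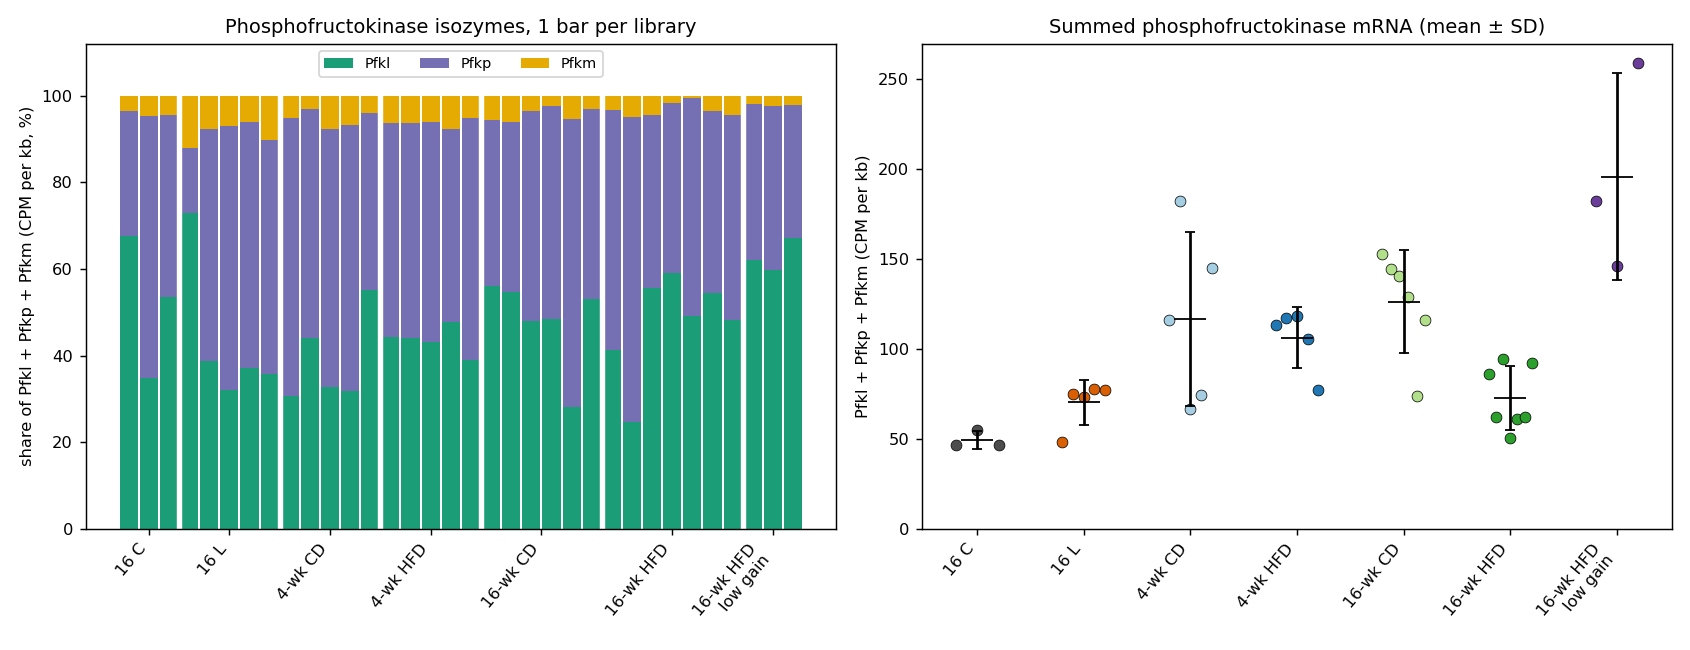
Left, share of Pfkl, Pfkp and Pfkm in their summed level per kilobase (y axis, %), 1 bar for each of the 34 libraries in the order of the groups; right, the sum itself (CPM per kb; points are libraries, line and bar are mean ± SD). Pfkm stays at or below 11.9%, and the mean summed level is highest in the low weight gainers (libraries at 146 to 259 CPM per kb). Their range overlaps 4-week CD (up to 182) and 16-week CD (up to 153).

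By group mean (mean ± SD in CPM), Hk1 stood at 37.8 ± 15.0 in 4-week HFD, 25.4 ± 15.8 in 4-week CD, 24.9 ± 7.94 in 16 L, 19.9 ± 22.7 in 16-week CD, 19.3 ± 6.77 in the low weight gainers, 5.50 ± 1.41 in 16-week HFD and 3.98 ± 1.04 in 16 C. Only the step from the low weight gainers to 16-week HFD separated neighbouring groups whose libraries did not overlap. Hk2 ran in nearly the opposite order, at 528 ± 47.8 in 16 C, 400.2 ± 105 in the low weight gainers, 380.1 ± 123 in 16-week HFD, 233 ± 181 in 16-week CD, 120.1 ± 40.5 in 4-week CD, 79.4 ± 20.2 in 4-week HFD and 59.1 ± 29.7 in 16 L. Each group overlapped the next. Pfkl stood at 465 ± 166 in the low weight gainers, 234 ± 84.4 in 16-week CD, 179.5 ± 110.1 in 4-week CD, 174 ± 34.4 in 4-week HFD, 128 ± 44.1 in 16-week HFD, 107 ± 15.5 in 16 L and 93.3 ± 22.9 in 16 C, and only the low weight gainers were separated from the group below them, under TMM scaling and not by library totals alone.

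Pfkm stood at 19.4 ± 4.66 in 4-week HFD, 16.8 ± 3.57 in 16 L, 15.7 ± 7.20 in 16-week CD, 15.6 ± 1.23 in 4-week CD, 11.9 ± 3.70 in the low weight gainers, 7.15 ± 4.26 in 16-week HFD and 5.92 ± 1.47 in 16 C. Pfkp stood at 277 ± 49.3 in the low weight gainers, 261 ± 95.4 in 4-week CD, 239.6 ± 30.2 in 16-week CD, 219 ± 30.3 in 4-week HFD, 148 ± 43.0 in 16-week HFD, 147 ± 66.0 in 16 L and 91.4 ± 41.9 in 16 C. Neighbouring groups overlapped for both of these subunits. Aldoa, which cleaves the doubly phosphorylated sugar, stood at 1596 ± 50.5 in the low weight gainers, 1477 ± 361 in 16-week CD, 1440.3 ± 273 in 16-week HFD, 1405 ± 493 in 16 C, 1336 ± 334 in 4-week HFD, 1095 ± 435 in 4-week CD and 697 ± 161 in 16 L. Tpi1, which interconverts the triose phosphates, stood at 934 ± 133 in 16-week CD, 874 ± 237 in 4-week HFD, 843 ± 77.9 in the low weight gainers, 805 ± 153 in 16-week HFD, 719 ± 251 in 16 C, 670.1 ± 518 in 4-week CD and 457 ± 152 in 16 L. For both enzymes 16 L was last under TMM scaling, and neighbouring groups overlapped throughout. By library totals alone 16 C was last for Tpi1 (mean 504 RPM, and 546 RPM in 16 L).

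Pgk1 stood at 397 ± 143 in 16-week CD, 380.0 ± 16.2 in the low weight gainers, 377 ± 98.2 in 16-week HFD, 297 ± 88.9 in 4-week HFD, 205 ± 32.1 in 16 C, 150.4 ± 109 in 4-week CD and 121 ± 62.3 in 16 L. Pgam1 stood at 146 ± 31.1 in the low weight gainers, 141 ± 51.6 in 4-week HFD, 113 ± 27.6 in 16-week CD, 86.6 ± 20.9 in 16-week HFD, 79.6 ± 21.0 in 16 C, 50.6 ± 63.4 in 4-week CD and 30.9 ± 34.2 in 16 L. Ldha stood at 1756 ± 559.9 in 4-week HFD, 1712 ± 264 in 16-week CD, 1641 ± 142 in the low weight gainers, 1466 ± 309 in 16-week HFD, 1178 ± 356 in 16 C, 1101 ± 821 in 4-week CD and 531 ± 235 in 16 L. These 3, too, had 16 L as the lowest group with 4-week CD next, and no pair of neighbours was separated. By library totals alone 16 C came next to 16 L, at 141 RPM for Pgk1 (139.5 RPM in 16 L), 55.7 RPM for Pgam1 (34.1 RPM) and 825 RPM for Ldha (643 RPM). The leptin and diet protocols were separate experiments, so levels set across them are a description.

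The genes with the most similar pattern were taken as those with the smallest root mean square difference of centred log2 CPM over the 34 libraries, among up to 6969 genes with at least 10 counts in every library. Within the 10 genes, Tpi1 was nearest to Aldoa (0.29) and Ldha to Tpi1 (0.315). The nearest genes were otherwise from outside the set: Hgs for Hk1 (0.465), Pitpnc1 for Hk2 (0.392), Ppme1 for Pfkl (0.457), Ddx54 for Pfkm (0.486), Fbxo38 for Pfkp (0.389), Ssr2 for Aldoa (0.27), Ostf1 for Pgk1 (0.348) and Hnrnpa1 for Pgam1 (0.616). The mean profile of the 10 was nearest to Ap1m1 (0.302), Ilk (0.309) and Afg3l2 (0.312). For scale, the SD of log2 CPM over the libraries ran from 0.512 for Aldoa to 1.47 for Pgam1. All genes were compared over the same libraries, with the same depths and groups.

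Copies elsewhere in the genome limit the precision of some of these counts. At 95% identity over at least 50 bases, 68.8% of the Pgk1 transcript matched 4 pseudogenes, 55.0% of Ldha matched 5, 43.1% of Pgam1 matched 1 and 19.3% of Tpi1 matched 1. Reads from those stretches could have been split or dropped in the counting, so absolute levels of these 4 genes are uncertain. Whether any such loss differed between libraries, and so entered the fold changes, was not tested. In Pfkp 18% matched 1 coding gene, and in Hk1 3.7% matched 1 other gene. No other gene matched Hk2, Pfkl, Pfkm or Aldoa to this extent. Of the pathway genes named, 88.0% of Gapdh matched other genes, 78 of them pseudogenes, and the same limits hold for Gapdh. Hk1, Hk2, Pfkm, Pfkp and Tpi1 overlap a gene on the opposite strand, and without strand information reads from the overlap cannot be assigned to either.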

How the data were processed

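CC mRNA was captured on oligo-dT beads and amplified by Smart-seq2, a protocol that marks neither strand nor molecules. Per the submitters' processing notes, reads were trimmed with Trim Galore 0.4.2 and aligned with HISAT2 2.0.5 to GRCm38. The authors deposited raw counts per gene for each library, and the counting settings are not given in the sources used here. CPM are these counts per 1e6 of the TMM-scaled library size and RPM per 1e6 of the plain total. Total counts ranged from 1104611 to 13207018 per library, so that 3 counts equal 0.22 to 2.73 CPM. This covers counting error only.

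Groups were taken from the labels, and 0 columns were unmapped. In R 4.3.3, genes were filtered with filterByExpr, scaled by TMM and tested within each comparison with edgeR 4.0.16 (quasi-likelihood, robust, two-sided). P-values were adjusted by Benjamini-Hochberg over all genes tested and called under 0.05. The scripts were tested on simulated data. CPM in the text are scaled over all 34 libraries and divided, where stated, by the longest coding transcript. The 10 genes, the pathway lists and the marker lists were chosen with earlier results of these data known. Of 79 listed pathway genes 76 were in the table under the symbol used. Named were every one of the 10 genes past the threshold and the 3 with the smallest p in each comparison, pathway genes past the threshold (up to 5 per list), and the nearest genes by pattern. Library 4-week CD replicate 11 and the far libraries were singled out after their values were seen. Alternatives were DESeq2 1.42.0, limma 3.58.1 voom with sample weights, RLE or total-count scaling, either no filter or a minimum of 10 counts per library, 1 fit of all libraries, the 50 most abundant genes left out, and each library left out in turn. Similarity between libraries was checked by chi-square over genes, and 0 of 72 pairs within groups were identical.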

Additional observations from a re-analysis of the deposited data

Results flagged for a closer look

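In 9 of the 50 groups of 4 to 10 libraries that were examined for the 10 genes, 1 library lay far from the rest, with a gap to its neighbour (log2 CPM) above Dixon's 95% critical value. Chance gives about 1 in 20, or 2.5 of 50, and the same library often carries several genes, so the 9 are not independent. Their causes were not tested.

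In 16 L replicate 18 (oviduct markers 31753 RPM), Hk1 was at 11.5 CPM, while the others lay between 24.2 and 31.6 CPM. Pfkp in the same library was at 29.9 CPM, while the others lay between 167 and 185 CPM. Both lay on the low side of the group. In 4-week HFD replicate 14, Pfkl was at 112 CPM, while the others lay between 186 and 193 CPM, and Pfkm was at 11.3 CPM, while the others lay between 20.4 and 23.4 CPM. In 16-week CD replicate 9, which was the library whose removal let 4 of the 10 genes pass the test against 16-week HFD, Pfkl was at 77.3 CPM, while the others lay between 229 and 319 CPM. Tpi1 in that library was at 673 CPM, while the others lay between 942 and 1040.4 CPM, and Pgam1 was at 58.0 CPM, while the others lay between 115 and 133 CPM. Aldoa stood apart in 4-week CD replicate 11, upwards, at 1860.2 CPM, while the others lay between 802 and 995 CPM, and in 16-week HFD replicate 10, downwards, at 909 CPM, while the others lay between 1327 and 1742 CPM.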

How the results depend on the processing

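The number of the 10 genes called by edgeR depended on the tool, the scaling and single libraries. For 16 L against 16 C it was 2, then 5 (DESeq2), 9 (limma-voom), 4 (library totals), 1 (at least 10 counts in every library) and 5 (one fit of all 34 libraries), and 0 to 6 with 1 library left out. For 4-week HFD against CD it was 0, then 8 (limma-voom), and 0 to 3 with 1 library left out. For 16-week HFD against CD it was 0, then 2 (DESeq2), 4 (library totals) and 2 (one fit of all 34 libraries), and 0 to 4 with 1 library left out. For the low weight gainers against 16-week CD it was 0, and 0 in every alternative run, leaving out single libraries included. For the low weight gainers against 16-week HFD it was 4, then 1 (one fit of all 34 libraries), and 2 to 4 with 1 library left out. For the interaction it was 0, then 2 (DESeq2), 8 (limma-voom) and 1 (library totals), and 0 to 3 with 1 library left out. The alternatives were followed gene by gene for 19 results only, the genes past the threshold and the 3 with the smallest p in each comparison. Of their 394 values under the alternatives, 347 kept their direction and side of the threshold, 16 lost the call, 30 gained it and 1 changed sign: Hk1 in 16-week HFD against CD, 0.11 with 16-week CD replicates 1 and 2 left out, since both carried its high level. Tpi1 in 16 L against 16 C, whose direction turned by library totals alone, was not among the 19. Leaving out those replicates, and summing close pairs of libraries, were chosen after seeing the data. Over all genes tested, the counts also moved by over 1.5 times. They were 1004 for 16 L against 16 C (2628 with DESeq2, 7552 with limma-voom, 3966 with library totals, 504 with no filter, 4383 with one fit of all 34 libraries; 30 to 4635 with 1 library left out); 499 for 4-week HFD against CD (1290 with DESeq2, 4048 with limma-voom, 69 with one fit of all 34 libraries, 72 with close pairs summed; 8 to 1700 with 1 library left out); 3 for 16-week HFD against CD (1056 with DESeq2, 5 with limma-voom, 1622 with library totals, 13 with no filter, 1 with at least 10 counts in every library, 1258 with one fit of all 34 libraries, 1 with close pairs summed, 1 with 16-week CD replicates 1 and 2 left out; 1 to 2217 with 1 library left out); 1 for the low weight gainers against 16-week CD (250 with DESeq2, 196 with limma-voom, 0 with library totals, 0 with at least 10 counts in every library, 7 with one fit of all 34 libraries, 3 with 16-week CD replicates 1 and 2 left out; 0 to 1 with 1 library left out); 2330 for the low weight gainers against 16-week HFD (487 with one fit of all 34 libraries; 596 to 2737 with 1 library left out); 448 for the interaction (1165 with DESeq2, 2355 with limma-voom, 873 with library totals, 157 with one fit of all 34 libraries, 4 with close pairs summed, 79 with 16-week CD replicates 1 and 2 left out; 69 to 1685 with 1 library left out). Scaling by library totals moved the median over all genes tested (log2 fold change) to 1.07 in 16 L against 16 C, -0.12 in 4-week HFD against CD, -0.39 in 16-week HFD against CD, -0.27 and 0.14 in the low weight gainers against 16-week CD and 16-week HFD, and -0.39 in the interaction. The cause of these shifts was not tested. No paired analysis was possible because the groups set against each other share no replicate number, and for the interaction the 2 HFD groups share only 1 (14), though the 2 CD groups share 3 (1, 2 and 8). Depth limits Hk1 and Pfkm most, with 4 counts of Hk1 in a 16 C library and 1 count of Pfkm in a 16-week HFD library.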
